A study of Homo sapiens with 16 samples.

Results

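H3K27ac, a histone mark of active regulatory DNA, was followed at the genes of the ISGylation pathway in THP-1 cells, a human monocytic leukemia cell line. The genes were USP18, ISG15, UBA7, UBE2L6, HERC5, HERC6, USP41 and TRIM25, and their regions were the rows of the deposited table that carry one of these gene names and lie within 50000 bp of its start site. This gave 33 of 151654 regions, each a window of 1000 bp at an ATAC-seq peak: 10 at HERC6, 7 at HERC5, 5 at USP18, 4 at UBE2L6, 4 at TRIM25, 2 at UBA7 and 1 at ISG15, with 0 named for USP41. WT cells carried Cas9 only, with a control sgRNA per the treatment note, and USP18 knockout cells carried sgRNAs against USP18, delivered by lentivirus and followed by growth from single sorted cells. Both were left untreated or given IFNα at 1000 U/ml for 6 h, with 2 libraries in each of the 4 groups. The labels do not say how many knockout clones the libraries stand for, so a difference between genotypes cannot be told apart from a difference between clones.

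ISG15 is a ubiquitin-like protein that is joined to target proteins by an enzyme cascade parallel to that of ubiquitin. UBA7 is its activating enzyme (E1), UBE2L6 its conjugating enzyme (E2), and HERC5 the main ligase (E3) in human cells. HERC6 and TRIM25 are E3 enzymes as well and are listed here with the pathway. USP18 removes ISG15 from its targets and, apart from this activity, restrains signaling at the IFNα receptor through STAT2. USP41 is a close relative of USP18. Genes of this pathway are IFN-stimulated genes, and many such genes are switched on through the IFN-stimulated response element (ISRE), a short DNA motif in their promoters.

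The libraries held 24712371 to 30501088.5 tags, of which 9046141 to 12935453.5 fell in the regions. Levels are given in CPM, the tags of a region scaled to a common library size with TMM factors. All windows have the same length, so levels of different genes are set side by side. They were not corrected with the input libraries or for how well reads map at each locus. Of 8 myeloid marker genes, 6 had a region at the start site, with medians from 2.08 CPM at CSF1R to 86.8 at SPI1. MPO and FCGR1A had none, nor did any of the 3 T cell and 3 erythroid markers. A region was present for 1 of 3 B cell markers (CD79A, median 5.41, above CSF1R) and 1 of 3 epithelial markers (KRT8, median 0.884). A region is called when edgeR's quasi-likelihood test gives a Benjamini-Hochberg adjusted p under 0.05 over all 123276 tested regions with a log2 fold change over 1 in size. Of the 33 regions, 28 had enough tags to be tested: 15 within 3000 bp of a start site and 13 farther away. Neighbouring windows can overlap, and 12 of the 33 shared bases with another. In a bulk assay, more cells carrying the mark and more of it per cell cannot be told apart.

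The sequences printed here hold the ISRE core, GAAANNGAAA read on either strand, and were picked to show 1 or 2 stretches each at ISG15, HERC5, USP18, UBE2L6 and HERC6. Cores in 4 other tested regions, UBE2L6 +40, HERC5 -17646 and HERC6 +13188 and +33135, are not shown. Nor is a further core in the ISG15 region, upstream of those printed. Capitals mark the core, and each sequence runs 5′ to 3′ on the strand of the gene.
ISG15 promoter (RefSeq, GRCh38.p14, chr1:1013364-1013419, plus strand): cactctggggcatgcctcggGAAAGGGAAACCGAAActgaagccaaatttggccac
HERC5 promoter (RefSeq, GRCh38.p14, chr4:88456974-88457074, plus strand): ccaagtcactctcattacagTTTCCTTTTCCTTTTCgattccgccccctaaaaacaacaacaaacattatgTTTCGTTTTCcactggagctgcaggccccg
USP18 region +111 (hg38, chr22:18150060-18150088, plus strand): TTTCGCTTTCcattcagtgGAAAACGAAA
UBE2L6 region +1379 (hg38, chr11:57566297-57566346, minus strand): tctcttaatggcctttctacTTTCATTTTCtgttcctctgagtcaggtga
HERC6 region +631 (hg38, chr4:88379363-88379441, plus strand): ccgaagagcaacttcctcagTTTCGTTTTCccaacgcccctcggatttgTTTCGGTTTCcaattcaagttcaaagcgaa
HERC6 region +4076 (hg38, chr4:88382874-88382923, plus strand): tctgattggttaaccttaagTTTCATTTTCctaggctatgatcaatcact

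Regions are named by gene and by the distance in bp of the window's centre from the nearest annotated start site, with a plus sign inside the gene. The 33 distances refer to 1 start site per gene, except that UBE2L6 +30 refers to a start 623 bp upstream of the one used for the other UBE2L6 regions. The ISG15 promoter held 2 overlapping cores, and the HERC5 promoter 3, of which 2 overlap. At USP18 the window at the start site held 2 cores in opposite orientation, close to its centre. They lie upstream of the GENCODE start of USP18, 18150118, but downstream of the start that the deposited distances refer to, 18149991. The UBE2L6 core lay 6 bp from the centre of an intronic window, and the HERC6 cores lay in the first intron. Of the 28 tested regions, 13 (46.4%) held at least 1 ISRE core, against 17.1% of all tested regions. Overlapping windows share cores, so these 13 regions stand for 10 separate stretches. In the central 200 bases the counts were 8 of 28 (28.6%), against 5.62%. HERC5 -17646 and HERC6 +13188, both in these counts, hold their cores within longer runs of A and G or of T and C. Among RefSeq promoters, which span 250 bases before to 50 after the start, 3.57% of 35116 held the core; of those matched here, ISG15 and HERC5 held it, and HERC6, TRIM25 and both UBE2L6 promoters did not. The GAS core, TTCNNNGAA, was in 6 of 28 regions (21.4%), against 25.6% of all tested regions. The windows of UBA7 and TRIM25 held no ISRE core, which says only that these letters were not found there. Promoter sequences were matched for ISG15, HERC5, HERC6, UBE2L6 and TRIM25, and those of USP18, UBA7 and USP41 were not used here.

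At the targeted gene itself, the mark at the USP18 start site was near equal in untreated WT and knockout cells and highest in knockout cells given IFNα. The region (chr22:18149602-18150602 of hg38) carries the annotation of the first exon, 5′ UTR, of USP18 and spans the GENCODE start of the gene at 18150118. It had 7.88 and 7.64 CPM in untreated WT cells, 18.1 and 15.0 in WT cells given IFNα, 8.23 and 8.51 in untreated knockout cells, and 49.3 and 41.7 in knockout cells given IFNα. The 4 groups did not overlap, although the untreated ones lay close together. IFNα raised the mark 2.13-fold in WT cells (log2 fold change 1.09, SE 0.16, adjusted p = 2.06e-06, edgeR) and 5.44-fold in knockout cells (log2 fold change 2.44, SE 0.14, adjusted p = 6.27e-26, edgeR). Without the first WT IFNα library, the WT value was 0.95 on the log2 scale, short of the fold threshold, with an adjusted p of 0.0045. Untreated knockout cells did not differ detectably from WT (log2 difference 0.11, SE 0.18, adjusted p = 0.705, edgeR), and under IFNα they were 2.75-fold higher. The mark at the start site does not show whether the coding sequence is disrupted, and so does not check the knockout. The other tested USP18 regions, +6289 and +7331 in the first intron, had group means of 0.42 to 1.20 CPM and passed no test, though +7331 was called higher in knockout cells under IFNα without the second WT IFNα library (log2 2.51, adjusted p = 0.0394).

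ISG15, the modifier, showed the same order of groups. Its only region (chr1:1012907-1013907, at the start site) had 6.43 and 8.55 CPM in untreated WT cells and 26.2 and 29.3 in WT cells given IFNα. In knockout cells it had 8.05 and 9.28 untreated and 75.8 and 73.1 with IFNα. The untreated groups overlapped, and both IFNα groups stood above them and apart from each other. The rise was 3.68-fold in WT cells (log2 1.88, SE 0.15, adjusted p = 3.68e-17, edgeR) and 8.60-fold in knockout cells (log2 3.10, SE 0.13, adjusted p = 1.23e-34, edgeR). The IFNα effect was thus larger in knockout cells, with a log2 difference of 1.23 (SE 0.21, adjusted p = 4.29e-06, edgeR), a value that fell just below the fold threshold without the second untreated WT library (1.00, adjusted p = 0.00611). The 2 overlapping cores in the sequence printed for ISG15 lie 12 to 18 bp from the centre of this window.

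At UBA7, the E1, IFNα moved the mark little in WT cells and several-fold in knockout cells. The start-site region (chr3:49813429-49814429) had 15.0 and 16.9 CPM in untreated WT cells, 24.2 and 22.6 with IFNα, 15.1 in both untreated knockout libraries, and 70.5 and 60.9 in knockout cells with IFNα. Untreated knockout and WT libraries overlapped, and the WT IFNα libraries lay above both. The WT effect was 1.46-fold (log2 0.55, SE 0.13, adjusted p = 0.0156, edgeR), under the fold threshold, and DESeq2 gave it an adjusted p of 0.163. Leaving out 1 library also lost it in 4 cases, with adjusted p up to 0.409. In knockout cells the rise was 4.36-fold (log2 2.12, SE 0.12, adjusted p = 7.42e-27, edgeR), and the log2 effects differed by 1.57 (SE 0.18, adjusted p = 7.07e-11). The overlapping region +752 gave 0.66 in WT and 2.00 in knockout cells on the same scale.

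UBE2L6, the E2, had the largest IFNα response among the start-site regions of knockout cells. Its start-site region +30 (chr11:57567800-57568800) had 1.35 and 1.73 CPM in untreated WT cells, 4.97 and 2.68 with IFNα, 1.40 and 1.93 in untreated knockout cells, and 18.2 and 17.2 in knockout cells with IFNα. The rise was 10.6-fold in knockout cells (log2 3.41, SE 0.24, adjusted p = 4.35e-21, edgeR). In WT cells it was 2.47-fold (log2 1.30, SE 0.32, adjusted p = 0.0221, edgeR), and this call was lost with DESeq2 (adjusted p = 0.216). It was also lost without the first or the second untreated WT library (adjusted p = 0.377 and 0.145) or the first WT IFNα library (log2 0.78, adjusted p = 0.674). The intronic region +1379 (chr11:57565828-57566828), whose sequence is printed above, held more of the mark than the start site. It went from 2.28 and 2.00 CPM in untreated WT cells to 13.2 and 12.8 with IFNα, and from 3.33 and 4.06 in untreated knockout cells to 82.2 and 65.9. The 4 groups did not overlap there. IFNα raised it 6.06-fold in WT cells (log2 2.60, SE 0.22, adjusted p = 7.91e-16, edgeR) and 20.1-fold in knockout cells (log2 4.33, SE 0.16, adjusted p = 9.61e-39, edgeR), a difference of effects of 1.73 (SE 0.32, adjusted p = 3.03e-05). The remaining UBE2L6 windows, -225 and +40, lie at the downstream start, overlap the +30 window and rose by 3.72 and 3.96 on the log2 scale in knockout cells. In WT cells the call of -225 was lost without the second untreated WT library (adjusted p = 0.0914) or the first WT IFNα library (adjusted p = 0.214).

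**Figure D1:**
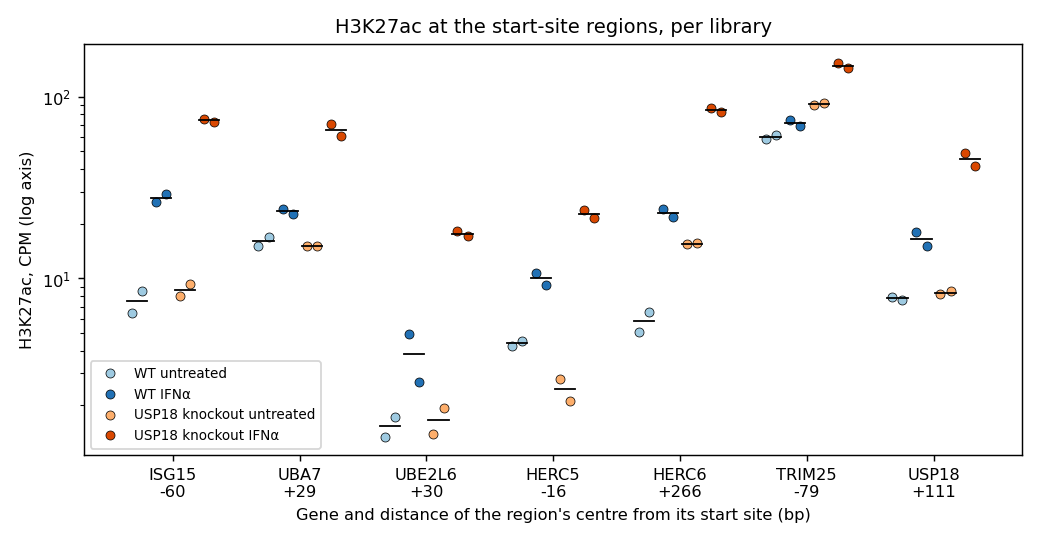
H3K27ac at the start-site region of each gene, in CPM on a log axis, for WT and USP18 knockout cells with and without IFNα. Points are the 2 libraries of a group and bars their mean; knockout cells given IFNα are highest at all 7 genes, with group means from 17.7 at UBE2L6 to 149 at TRIM25.

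HERC5 and HERC6, E3 enzymes encoded side by side on chromosome 4, both rose with IFNα. Without IFNα, the mark at HERC6 was higher in knockout than in WT cells. The HERC5 start-site region -16 (chr4:88456601-88457601) had 4.25 and 4.55 CPM in untreated WT cells, 10.7 and 9.26 with IFNα, 2.80 and 2.13 in untreated knockout cells, and 23.8 and 21.6 in knockout cells with IFNα. The HERC6 start-site region +266 (chr4:88378505-88379505) had 5.08 and 6.55, 24 and 21.8, 15.4 and 15.7, and 86.7 and 82.6 in the same order. No groups overlapped at either gene, but untreated knockout cells were lowest at HERC5 and above untreated WT cells at HERC6. At HERC5 the knockout value was lower by a log2 difference of -0.83 (SE 0.26, adjusted p = 0.00979, edgeR), short of the fold threshold. Without the first untreated knockout library this was -1.05 (adjusted p = 0.0144) and past it, while without the second untreated WT library the adjusted p was 0.0728 and without the second untreated knockout library it was 0.118 (log2 -0.65). The overlapping HERC5 region +273 gave -0.22 (adjusted p = 0.694, edgeR). At HERC6 the knockout value was 2.65-fold higher (log2 1.41, SE 0.16, adjusted p = 1.61e-11, edgeR).

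IFNα raised the mark at HERC5 2.27-fold in WT cells (log2 1.18, SE 0.21, adjusted p = 9.35e-05, edgeR) and 9.12-fold in knockout cells (log2 3.19, SE 0.20, adjusted p = 7.69e-24, edgeR). The difference of these effects, 2.01 (SE 0.31, adjusted p = 4.80e-07), includes the lower starting level of the knockout cells. Between genotypes under IFNα, HERC5 had a log2 difference of 1.18 (SE 0.16), and by 0.90 where the sum of counts set the library size. The overlapping windows -269 and +273 had IFNα effects of 1.18 and 1.19 in WT cells and of 3.22 and 2.92 in knockout cells. The WT call at +273 was lost under DESeq2 (adjusted p = 0.269) and on leaving out any of the 4 WT libraries (adjusted p of 0.0526 to 0.501), and its difference of effects without the second untreated WT library (adjusted p = 0.116). HERC6 +266 rose 3.91-fold in WT cells (log2 1.97, SE 0.16, adjusted p = 4.37e-17, edgeR) and 5.45-fold in knockout cells (log2 2.45, SE 0.12, adjusted p = 2.74e-31, edgeR). Its effects differed by 0.48 (SE 0.20, adjusted p = 0.130), which did not pass the test, and the overlapping region +631 gave 0.38 (SE 0.21, adjusted p = 0.275). Among the 7 start-site regions, only that of HERC6 was called as different between genotypes without IFNα. Of all 28847 tested regions within 3000 bp of a start site, 2130 were called higher and 1300 lower in this comparison.

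Inside HERC6 the mark extended into introns in knockout cells given IFNα. Region +4076 (chr4:88382315-88383315, first intron) had 0.415 and 0.364 CPM in untreated WT cells, 1.09 and 1.44 with IFNα, 0.700 and 0.580 in untreated knockout cells, and 16.7 and 16.2 in knockout cells with IFNα. The first 3 of these groups hold 4 to 14.5 tags per library, so their ratios are imprecise. The rise in knockout cells was 25.1-fold (log2 4.65, SE 0.29, adjusted p = 1.90e-24, edgeR), and the WT value of 1.67 (SE 0.54, adjusted p = 0.167) was not called there. The effects differed by 2.98 (SE 0.78, adjusted p = 0.00424), and this call was lost without the first untreated WT library (adjusted p = 0.0655). Regions +13188 and +14065 in the fourth intron, the first of them named after its values were seen, rose by 2.38 and 2.22 in knockout cells. Their WT values were 0.06 and 0.38, with adjusted p of 0.989 and 0.885 by edgeR. The difference of effects at +14065 (1.84, adjusted p = 0.0397) was lost under DESeq2 (adjusted p = 0.279) and on leaving out any 1 library other than the first untreated knockout library (adjusted p up to 0.220). That at +13188 (2.32, adjusted p = 0.00369) was lost under DESeq2 (adjusted p = 0.0549). Farther in, +19848, +22399 and +33135 stayed at group means of 0.49 to 1.27 CPM and passed no test.

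**Figure D2:**
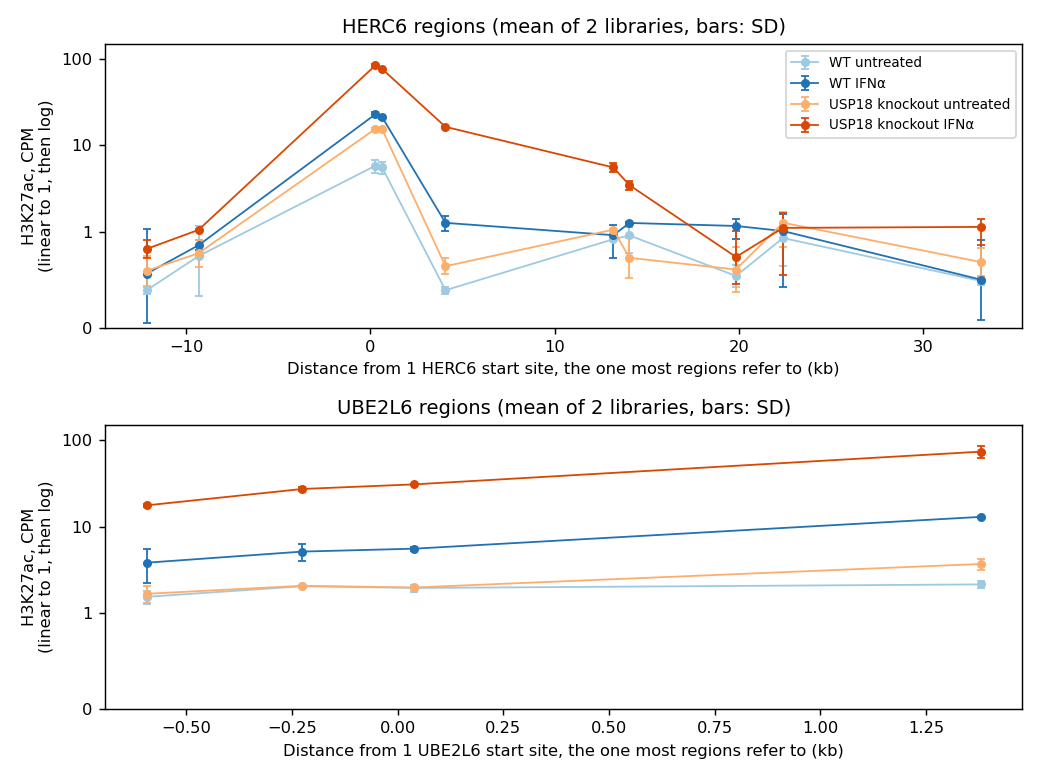
H3K27ac in CPM (linear to 1, then log) against distance in kb from 1 start site per gene, at the 10 HERC6 regions (top) and the 4 UBE2L6 regions (bottom, with +30 drawn at -593 bp). Points are means of 2 libraries and bars the SD; in knockout cells given IFNα the mark at HERC6 stays above the other groups to 14065 bp, and at UBE2L6 it is highest at 1379 bp.

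TRIM25, an E3 enzyme best known for activating RIG-I, stood apart from the rest. Its start-site region -79 (chr17:56913627-56914627) carried the most H3K27ac of the 7 genes in untreated cells. It had 58.3 and 61.9 CPM in untreated WT cells, 74.1 and 69.0 with IFNα, 89.8 and 92.1 in untreated knockout cells, and 154 and 143 in knockout cells with IFNα. The groups did not overlap, and both knockout groups lay above both WT groups. IFNα moved it 1.19-fold in WT cells (log2 0.25, SE 0.09, adjusted p = 0.255, edgeR) and 1.64-fold in knockout cells (log2 0.71, SE 0.08, adjusted p = 2.68e-11, edgeR), neither past the fold threshold. Knockout cells were higher by 1.51-fold untreated (log2 0.60, SE 0.09, adjusted p = 2.88e-08, edgeR) and 2.08-fold with IFNα (log2 1.06, SE 0.09, adjusted p = 1.58e-18, edgeR). The last value dropped to 0.98 without the first knockout IFNα library, to 0.94 with all tags as library size and to 0.78 with the sum of counts, each below the fold threshold. The upstream region -1940 had 12.7 and 12.6 CPM in untreated WT cells against 29.9 and 23.6 in untreated knockout cells, a difference of 1.08 (SE 0.14, adjusted p = 4.08e-10, edgeR). Without the first untreated knockout library it was 0.90, and with the sum of counts as library size 0.94, both below the fold threshold. At -5126 the untreated knockout libraries were far apart, 21.2 and 12.5, against 12.4 and 11.6 in WT cells. Its IFNα effect in knockout cells was 0.78 with both libraries, 1.19 without the first and 0.46 without the second of them. The intronic region +5612 went the other way, from 10.8 and 12.6 to 7.65 and 7.04 CPM with IFNα in knockout cells (log2 -0.66, SE 0.18, adjusted p = 0.00363, edgeR). This was lost under DESeq2 (adjusted p = 0.0542) and without the second untreated knockout library (adjusted p = 0.0706). Over all tested regions within 3000 bp of a start site, the median difference of knockout from WT was 0.31 untreated and 0.34 with IFNα, and over the regions around TRIM25 that are named for other genes it was 0.18 and 0.60. The part of such shifts in the TRIM25 values was not tested.

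Over all 28 tested regions, IFNα in WT cells gave 11 calls higher, against a background of 0.343% of all tested regions, and 0 lower, against 0.0389%. By edgeR 1 was lower at an unadjusted p under 0.05, and DESeq2 called 9 higher and 0 lower. In knockout cells 16 were called higher (background 7.12%) and 0 lower by edgeR (background 4.41%; 1 at an unadjusted p under 0.05), and DESeq2 also called 16 higher and 0 lower. The median log2 effect was 0.88 in WT and 2.17 in knockout cells, against -0.01 in both over all tested regions. All 11 calls in WT cells lay within 3000 bp of a start site, as did 13 of the 16 in knockout cells. Over all tested regions, 132 of 28847 within that distance and 291 of 94429 beyond it were called higher in WT cells. In knockout cells these counts were 1330 and 7451. TRIM25 had no region called with IFNα in either genotype by edgeR, and UBA7 none in WT cells. With only 1 window kept per chain of overlapping ones, 6 and 9 of 21 regions were called. Both comparisons rest on the deposited counts of 2 libraries a group. The p-values use a spread estimated jointly over regions from these libraries, which the labels number only as replicates.

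**Figure D3:**
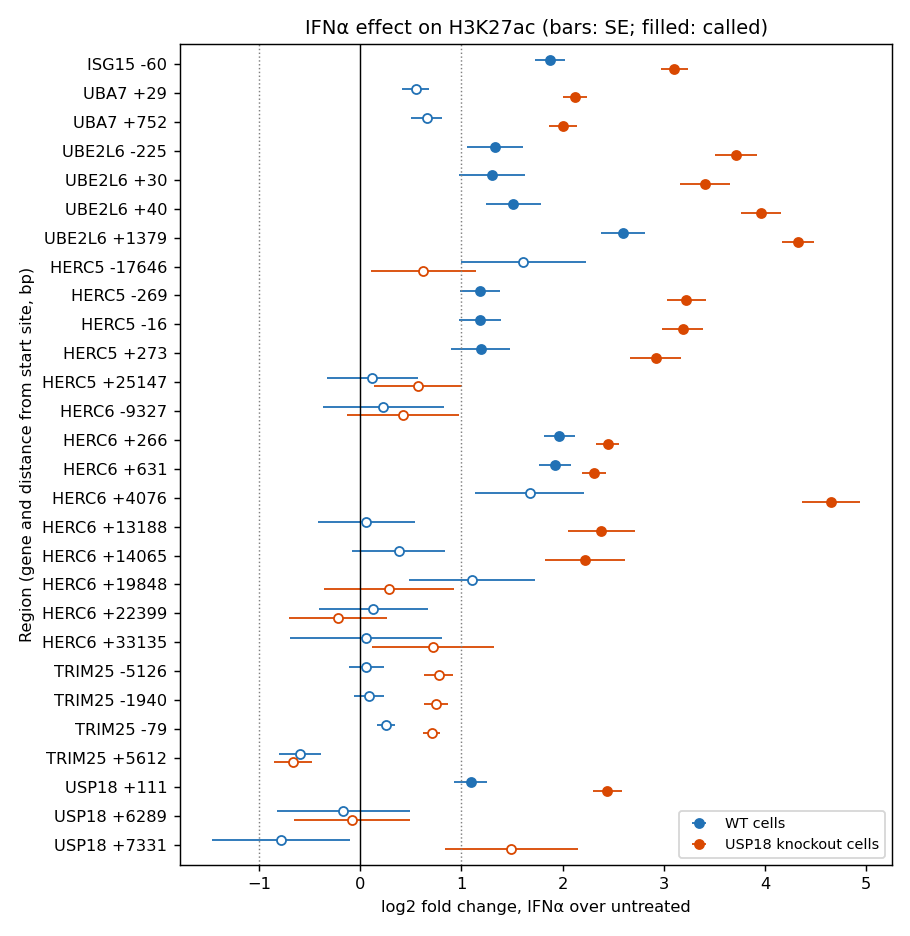
IFNα effect on H3K27ac at the 28 tested regions, as log2 fold change over untreated cells of the same genotype, in WT and USP18 knockout cells. Bars are standard errors, filled points are called and dotted lines mark the fold threshold; knockout points lie right of WT points at all start-site regions, and the 4 TRIM25 regions stay within 1 on either side of 0.

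Between genotypes without IFNα, 3 regions were called higher (background 5.69%), which are HERC6 +266 and +631 and TRIM25 -1940, and 0 lower by edgeR (background 10.8%; 2 at an unadjusted p under 0.05) or DESeq2. Without the first untreated knockout library 2 were higher and 2 lower (HERC5 -16 and -269), and with the sum of counts 2 higher and 1 lower (HERC5 -269). The share of higher calls is not far from the background, and the median over the 28 regions was 0.18, against -0.02 over all tested regions. Within 3000 bp of a start site the median was 0.09 for regions of these genes and 0.31 for all tested regions. Regardless of the size of the change, 7 regions were higher (background 16.9%) and 2 lower (background 16.7%) at an adjusted p under 0.05. Under IFNα, 19 were called higher in knockout cells (background 11.3%) and 0 lower by edgeR (background 13.5%; 0 at an unadjusted p under 0.05) or DESeq2, with a median of 1.38 against 0.00 over all tested regions. All 15 regions within 3000 bp of a start site were among the 19. At that distance, 4197 of all 28847 tested regions were called higher, and the median was 1.51 for these 15 regions and 0.34 for all. With the sum of counts as library size, 15 were called. That scaling moves the median of all tested regions to -0.27 in this comparison, and the share of higher among all called regions from 45.7% to 26.8%. The difference of the IFNα effects was called in 14 of 28 regions, all larger in knockout cells (background 4.61%), and in 0 smaller by edgeR (background 2.55%; 0 at an unadjusted p under 0.05). DESeq2 called 12 larger and 0 smaller. These comparisons share libraries, so their counts are not independent of each other.

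**Figure D4:**
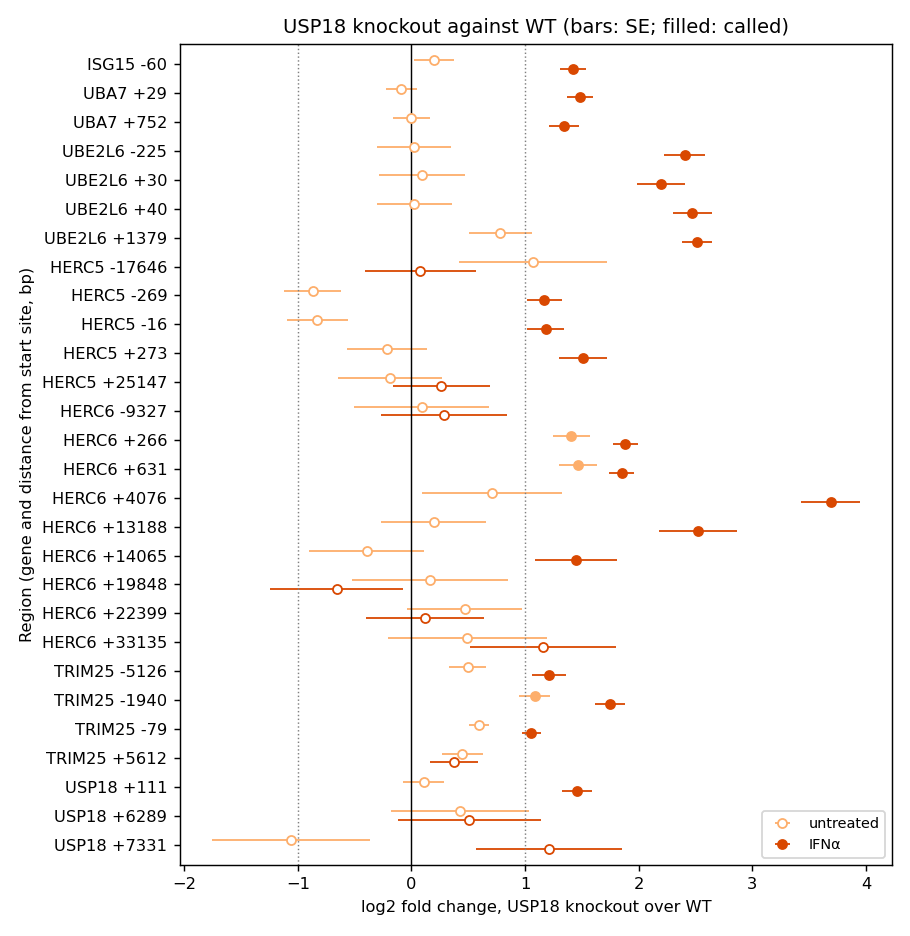
Difference of USP18 knockout from WT cells in H3K27ac at the 28 tested regions, as log2 fold change, without and with IFNα. Bars are standard errors and filled points are called; the filled untreated points are HERC6 +266, HERC6 +631 and TRIM25 -1940, and with IFNα all 15 regions within 3000 bp of a start site are called higher.

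The genes whose start-site regions were most like that of USP18 over the 8 libraries, among 14221 genes, were SHISA5, FBXO6, SLFN12, LOC100419583 and LGALS9. Likeness was the Euclidean distance of log2 values centred on each region's own mean, and was 0.292 for SHISA5 and 0.389 for LGALS9. SHISA5 had group means of 20.0, 41.8, 22.3 and 118 CPM in untreated WT, WT with IFNα, untreated knockout and knockout with IFNα. For ISG15 the nearest were MX2, PARP14, IFITM3, LINC01887 and TRIM22, at distances of 0.485 to 0.803. MX2, an antiviral GTPase, had 6.09, 17.4, 5.76 and 51.4 in the same order.

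Among relatives in the ubiquitin system, 0 of 48 tested regions were called with IFNα in WT cells by edgeR (1 higher and 2 lower at an unadjusted p under 0.05; 0 by DESeq2), and 4 higher and 1 lower in knockout cells. The backgrounds for these lists are those of all tested regions, 0.343% higher and 0.0389% lower in WT cells and 7.12% and 4.41% in knockout cells, so the counts for the relatives lie near them. UBE2L3, the closest relative of UBE2L6, moved by 0.50 on the log2 scale at its start site in knockout cells and by 2.78 at an intronic region, +3565. Among partners of ISG15 or USP18, 0 of 33 regions were called in WT cells by edgeR (2 higher and 3 lower at an unadjusted p under 0.05; 0 by DESeq2) and 2 higher in knockout cells, again near the background. The start site of STAT2, which also binds USP18, rose there (log2 fold change 1.52, SE 0.12, adjusted p = 7.96e-19, edgeR), from 17.8 to 51.1 CPM. Among known targets of ISG15 conjugation, most of them IFN-stimulated genes themselves, 11 of 73 regions were higher and 1 lower in WT cells, and 15 higher and 1 lower in knockout cells. They include the start sites of IFIT1, from 3.28 to 15.0 CPM in WT cells and from 5.28 to 61.2 in knockout cells, and of EIF2AK2, from 10.9 to 31.5 and from 8.47 to 59.4.

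Around the start-site regions, 47 tested regions within 50000 bp were named for other genes. With IFNα, 1 of these was called higher in WT cells by edgeR and 0 by DESeq2 (HES4 -1803, inside the ISG15 gene as GENCODE draws it), and 7 were higher and 4 lower in knockout cells, against the same backgrounds. SERPING1 +152, a complement regulator 29406 bp from the UBE2L6 start-site region, had group means of 1.03, 1.06, 0.728 and 7.60 CPM, with a difference of IFNα effects of 3.29 (SE 0.60, adjusted p = 1.88e-05, edgeR). A pair of overlapping regions named for MTVR2, which lie inside the TRIM25 gene in the GENCODE annotation, went from 0.562 and 0.610 to 11.4 and 12.2 CPM in knockout cells, larger folds than at any region named for TRIM25.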

How the data were processed

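H3K27ac ChIP-seq was analysed in 8 libraries, 2 in each of 4 groups: WT and USP18 knockout THP-1 cells, without or with 6 h of IFNα (1000 U/ml). The authors mapped reads to hg38 with Bowtie2 and had HOMER count tags, not normalized, in windows of 1000 bp around ATAC-seq peaks merged over samples. The deposited values are fractional, in steps of 0.5, and belong to the unit expected counts. Versions are not given in the sources used here. All 8 value columns were matched to a library by name, with 0 left unmapped. Values were rounded to whole counts. The 123276 of 151654 regions that reached 10 counts in 2 or more libraries were fitted with edgeR 4.0.16 in R 4.3.3, with TMM factors and 1 mean per group, and 5 contrasts were tested by quasi-likelihood, with p-values adjusted after Benjamini and Hochberg over all tested regions. CPM values use the TMM-scaled library sizes and no pseudocount. The SE of a log2 fold change was derived from the test, as its absolute value divided by the square root of the quasi-likelihood F statistic. The common biological coefficient of variation was 0.0747, and the spread was estimated jointly over regions because each group has only 2 libraries.

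The fit and the motif search were first tested on simulated data. Motifs were searched as exact matches in the hg38 sequence. The named regions are, for each gene, that nearest the start site, the distal one (over 3000 bp) with the highest mean, and those with the largest called or the lowest and highest log2 fold change in a contrast. The genes and lists were chosen with earlier results of these data known. Listed beside them were relatives in the ubiquitin system (11 genes), partners of ISG15 or USP18 (9) and known targets of ISG15 conjugation (10), with regions within 50000 bp. Alternatives covered the scaling (sum of counts; DESeq2 1.42.0 with its own size factors), filters, rounding, which libraries entered, a block for the replicate number, leaving out each library, the fold threshold, the distance and overlapping windows; tag totals as library size were added after seeing the data. Input libraries were not analysed here.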

Additional observations from a re-analysis of the deposited data

Results flagged for a closer look

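The IFNα effect differed between genotypes, by the test of the difference itself (edgeR's quasi-likelihood test, Benjamini-Hochberg adjusted over all tested regions), at 16 of the named regions, each time with the larger effect in USP18 knockout cells. On the log2 scale the difference was 1.35 at USP18 +111, 1.23 at ISG15 -60, and 1.57 and 1.35 at UBA7 +29 and +752. At UBE2L6 it was 2.38, 2.11, 2.45 and 1.73 for -225, +30, +40 and +1379. At HERC5 it was 2.04, 2.01 and 1.73 for -269, -16 and +273, and at HERC6 it was 2.98 and 1.84 for +4076 and +14065. TRIM25 had the smallest values, 0.72, 0.66 and 0.46 for -5126, -1940 and -79, with adjusted p from 0.00482 to 0.0213. Not all of these tests held throughout. That at HERC6 +14065 was lost in 10 settings, among them DESeq2 (adjusted p = 0.279) and leaving out 7 of the libraries. Those at HERC6 +4076 and HERC5 +273 were each lost without 1 untreated WT library, with log2 differences of 2.89 and 1.35. The 3 TRIM25 tests did not hold throughout either. The test at -5126 was lost under DESeq2 (adjusted p = 0.225), the sum of counts (0.0732), tag totals (0.0605) and on leaving out 6 of the 8 libraries, with 0.39 (adjusted p = 0.320, edgeR) without the second untreated knockout library. That at -1940 was lost under DESeq2 (adjusted p = 0.107), the sum of counts (0.0514) and on leaving out 4 of the libraries. That at -79 was lost under the sum of counts (adjusted p = 0.0508, edgeR) and without the second untreated WT library (0.0592). The start-site region of HERC6, with 0.48 (adjusted p = 0.130, edgeR), did not pass the test. Several of these windows overlap and are not separate findings.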

How the results depend on the processing

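Of 2150 tests of the 28 regions under the alternatives, 2109 kept the call, 34 lost it and 7 gained one, and no called value changed sign. Those kept include regions that were uncalled and stayed so. The 34 losses fell on 14 pairs of region and comparison, and 24 of them were on the adjusted p and 10 on the fold threshold alone. By adjusted p alone, 72 of 1998 values of 26 named regions fell short, 2 passed, and 57 that passed no test changed sign. The cause of these changes was not tested. The count of regions called was 11, 16, 3, 19 and 14 for IFNα in WT cells, IFNα in knockout cells, the knockout untreated, the knockout under IFNα and the difference of effects. Leaving out each library in turn gave 7 to 11, 16 to 17, 3 to 4, 18 to 20 and 11 to 15; the value of 7 came without the first WT IFNα library. With 1 window per chain of overlapping windows, which leaves 21 regions, it gave 6, 9, 12 and 8 in these comparisons other than the knockout untreated. Without a fold threshold, 9 regions differed between the untreated genotypes. In the central 200 bases, 8 regions held an ISRE core. Within 20000 bp, which leaves 16 neighbouring regions, 4, 2, 8 and 0 were called in the last 4 comparisons.

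The replicate block gave 11, 16, 3, 19 and 14 and changed no call; same-numbered libraries deviated together with correlations of 0.00186 to 0.0578, so the numbers were not taken to pair them. Over all regions, DESeq2 called 0 regions lower with IFNα in WT cells against 48, and 3608 larger and 1928 smaller differences of effects against 5682 and 3140. Without 1 library, 13 to 57 were lower with IFNα in WT cells. The sum of counts as library size gave 8825 regions higher in knockout cells under IFNα against 13971, and 4829 smaller differences of effects. That scaling took the share of higher among called regions from 61.8% to 48.5% for IFNα in knockout cells, from 34.5% to 22.7% for the untreated genotypes and from 64.4% to 49.3% for the difference of effects. Low tag counts limit the distal regions, where 10 tags in a library correspond to about 1 CPM.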

Other observations

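No region carries the name USP41, and a region that overlaps this gene in the GENCODE annotation is named for LOC101927859 (chr22:20364133-20365133 of hg38). It was looked up after the values were seen. It had group means of 31.8, 37.5, 24.8 and 27.9 CPM in untreated WT cells, WT cells with IFNα, untreated knockout cells and knockout cells with IFNα. The log2 IFNα effect was 0.24 (SE 0.11) in WT cells and 0.17 (SE 0.12) in knockout cells, with adjusted p of 0.523 and 0.345 by edgeR's quasi-likelihood test. Knockout cells were lower than WT cells by a log2 difference of -0.36 untreated (SE 0.12, adjusted p = 0.0131) and of -0.43 with IFNα (SE 0.12, adjusted p = 0.00156), both short of the fold threshold.

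At the far end of USP18, region +27848 had group means of at most 0.0515 CPM. Of the 970 stretches of 32 bases in its window, 93.4% also occur elsewhere in hg38, against 15.9% at USP18 +111 and 4.23% at ISG15 -60. Whether reads from this window were lost in mapping was not tested.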
